A study of Homo sapiens with 8 samples.

Results

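The renal lineage factors PAX2, PAX8, LHX1 and HNF4A and the cadherins CDH1, CDH2, CDH6 and CDH16 were followed in 4 human kidney cancer cell lines given the drug A939572 or its solvent. The members are 8 genes named by symbol, and every probe set that the platform annotation assigns to exactly 1 of them was taken. That gave 22 probe sets of 54613 and 7 genes of 19775. HNF4A had no such probe set in the table used and is not analysed here. PAX8 had 8 probe sets, CDH6 had 6, PAX2, CDH1 and CDH2 had 2 each, and LHX1 and CDH16 had 1 each. The rule that picks the probe sets uses no measured value, but the genes were proposed with earlier results of these data known.

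The 8 arrays are 1 of cells kept for 24 h in 75 nM A939572 and 1 of cells kept for 24 h in DMSO from each of the lines ACHN, CAKI2, A498 and CAKI1. A939572 inhibits stearoyl-CoA desaturase 1 (SCD1), the enzyme that makes monounsaturated from saturated fatty acids. All 4 are established lines bought from a cell bank and grown in serum-supplemented medium, and the labels call each of them clear cell renal cell carcinoma (ccRCC). Each line has 1 array per condition, so a second culture of a line was not measured and the 4 lines serve as the replicates.

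PAX2 and PAX8 are paired-box transcription factors of the embryonic kidney. Together with the LIM homeobox factor LHX1 they build the nephric duct and the early nephron, and PAX8 stays on in mature tubule cells and in most kidney cancers. Cadherins are calcium-dependent adhesion proteins that join neighbouring cells and bind catenins inside the cell. Kidney tubules use several of them: CDH1 (E-cadherin) is typical of distal segments, CDH2 (N-cadherin) and CDH6 (K-cadherin) of proximal cells and their precursors, and CDH16 (Ksp-cadherin) is nearly restricted to the kidney.

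Signals are the deposited intensities, 1 per probe set and array, and differences are given on the scale log2(signal + 16) after quantile normalization, as A939572 minus DMSO, and errors are SDs across the lines (n = 4). The added 16 understates the change of dim probe sets. Array medians lay between 68.4 and 84.0 signal units. As a measure of dim signal, the 95th percentile of 135 probe sets of olfactory receptor genes was 80.8 to 91.1 units on the A939572 arrays and 94.7 to 106 units on the DMSO arrays. The 3′ over 5′ signal ratio of the ACTB control probe sets was 3.02 to 4.22 with A939572 and 2.12 to 2.33 with DMSO, and that of GAPDH was 1.01 to 1.11 with A939572 and 0.962 to 1.05 with DMSO. This sign of RNA quality moved with the drug in every line, and its part in the results was not tested. In bulk RNA, fewer cells of a type and less RNA per cell cannot be told apart. None of the 3 leukocyte, 4 hepatocyte and 1 thyroid markers with a probe set passed the olfactory receptor level on any array. PECAM1 of 4 endothelial markers passed it on all arrays, and COL1A1 and DCN of 5 fibroblast markers passed it on some. The summed fibroblast marker signal was 199 to 1049 units with A939572 and 266 to 1348 units with DMSO. Of the 7 ccRCC and HIF marker genes with a probe set, 6 passed it on all arrays, and the exception was the oxygen sensor EGLN3, at 34.2 and 22.3 units in ACHN and CAKI1 with A939572 and 70.5 and 8.44 units with DMSO.

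PAX8 was higher with A939572 and CDH6 was lower. LHX1 was lower too, but its treated signals lay at background and it was tested only because its DMSO signals were higher. PAX2 and CDH2 did not pass the test, and the signals of CDH1 and CDH16 were too low to be tested.

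A probe set was tested if its mean over the 8 arrays reached 6.41, the median of all probe sets, and 16 of the 22 did. LHX1 at 6.43 and 1 probe set of CDH6 at 6.59 lay just inside this limit. The second PAX2 probe set at 6.20 and CDH16 at 6.17 lay just outside it. In limma with cell line as a block, 3 of the 16 were higher with A939572 and 3 were lower at a Benjamini-Hochberg adjusted p under 0.05. Of the 3 lower ones, LHX1 and CDH6 210601_at reached the filter only through their DMSO arrays, so their calls add nothing to this count as support. Among all 27307 probe sets tested, 26% were called, 13% higher and 13% lower. Represented by its brightest probe set, 1 of 5 tested genes was higher and 2 were lower, against 14.4% and 15.7% of all 12093 genes tested. LHX1 is 1 of these 2, and its call adds nothing to this count either. With median centring of the arrays, used instead of quantile normalization, 60.4% of the calls over all probe sets were higher, against 50.0% before. PAX8 and CDH6 were still called in the same directions. LHX1 was too, but its call after the filter is no support.

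**Figure D1:**
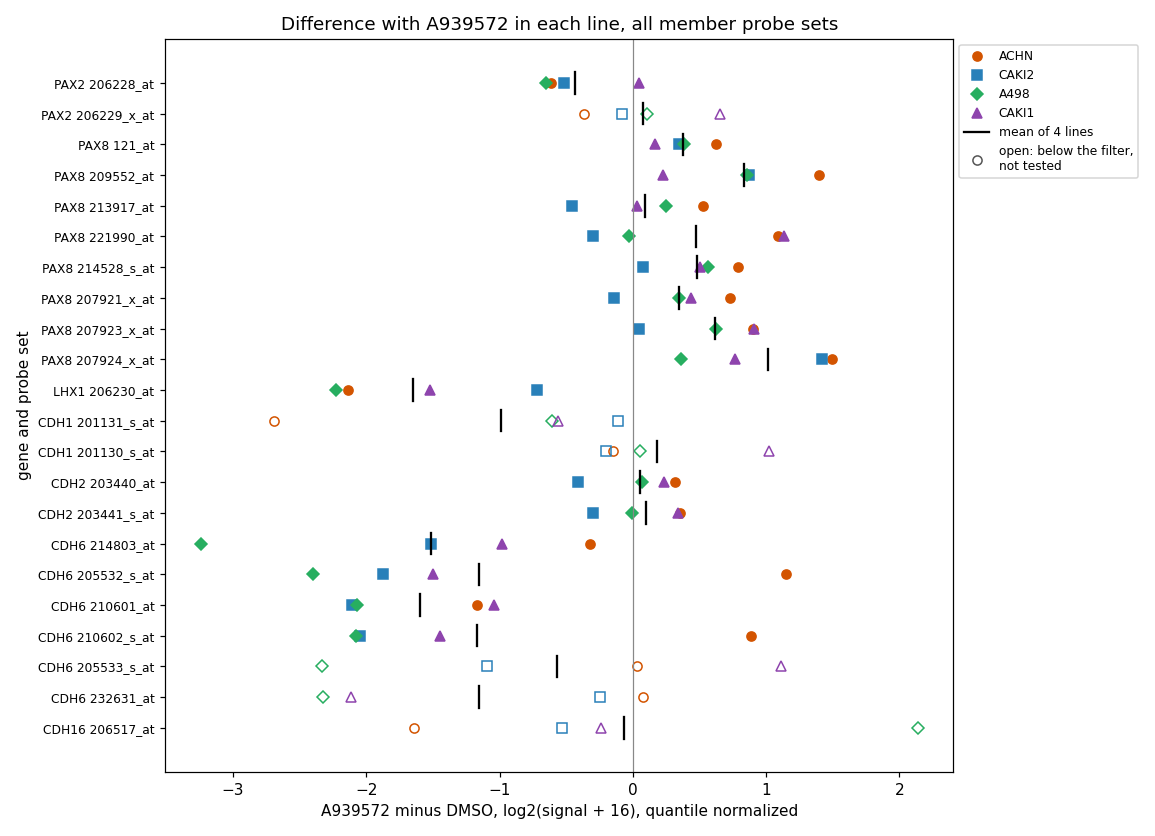
Difference between A939572 and DMSO on the log2(signal + 16) scale (x axis) for each of the 22 probe sets (y axis), with 1 symbol per cell line and a black bar at the mean of the 4 lines. Filled symbols were tested and open ones lay below the filter. The 8 PAX8 bars lie at 0.09 to 1.01 and the 6 CDH6 bars at -1.60 to -0.57.

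PAX8 was expressed in every line and rose with the drug. Its brightest probe set, 121_at, had 8278, 6532, 5639 and 4578 units in ACHN, CAKI2, A498 and CAKI1 with A939572, against 5318, 5199, 4324 and 4079 units with DMSO. The treated array was the higher one in each line, although the 2 groups overlap because the treated CAKI1 signal lies below the DMSO signals of ACHN and CAKI2. The differences were 0.62, 0.35, 0.38 and 0.17 in the same order, a mean of 0.38 ± 0.19 (SD, n = 4 lines; limma adjusted p = 0.0319). This call rested on the set of lines: without ACHN the mean was 0.30 (adjusted p = 0.143), and without CAKI2 or A498 the adjusted p was 0.0794 or 0.0855.

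A second PAX8 probe set, 209552_at, had 2676, 1856, 1659 and 1034 units with A939572, against 1002, 1004, 897 and 866 units with DMSO. Here the groups did not overlap, and the mean difference was 0.84 ± 0.48 (limma adjusted p = 0.00838). ACHN had the largest difference at 1.40 and CAKI1 the smallest at 0.22. The call held without any 1 of the lines. The probe set 207924_x_at had 271, 205, 219 and 202 units with A939572 and 91.3, 67.0, 174 and 113 units with DMSO, again without overlap. Its mean difference was 1.01 ± 0.54 (adjusted p = 0.0132), which became 0.0584 without ACHN and 0.0548 without CAKI2. The other 5 PAX8 probe sets had positive means, 0.09 to 0.62, that did not pass (adjusted p = 0.0627 to 0.745). Of these, 213917_at, at 0.09 ± 0.42, had a negative difference in CAKI2 (-0.45) and a mean of -0.056 without ACHN. Probe sets of PAX8 can cover different transcripts, and 4 of the 8 carry suffixes for probes that can match more than 1 transcript. Over the 8 arrays their levels correlated with 121_at at r = 0.94 for 209552_at and at r = 0.02 for 221990_at, with line, drug and array shared by the points.

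The promoter window of PAX8 is printed because it is the 1 gene of the set that rose. It holds the 250 bases before the annotated start and the 50 after it, from RefSeq on GRCh38.p14 (chr2:113278872-113279171, minus strand). It was searched for the E-box CACCTG or CAGGTG, which is bound by ZEB1, ZEB2 and TCF3, and for the GC box GGGCGG or CCGCCC, each on both strands. Neither occurs in it, so no letters are in capitals. Of 35116 RefSeq promoter windows of this length, 20.6% hold the E-box and 45% the GC box.
PAX8: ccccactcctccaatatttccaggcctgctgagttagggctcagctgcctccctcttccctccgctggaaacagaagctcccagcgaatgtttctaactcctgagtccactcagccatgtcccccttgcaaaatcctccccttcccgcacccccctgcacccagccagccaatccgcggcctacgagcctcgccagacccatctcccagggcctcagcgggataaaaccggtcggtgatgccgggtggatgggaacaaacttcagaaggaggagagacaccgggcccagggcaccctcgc

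**Figure D2:**
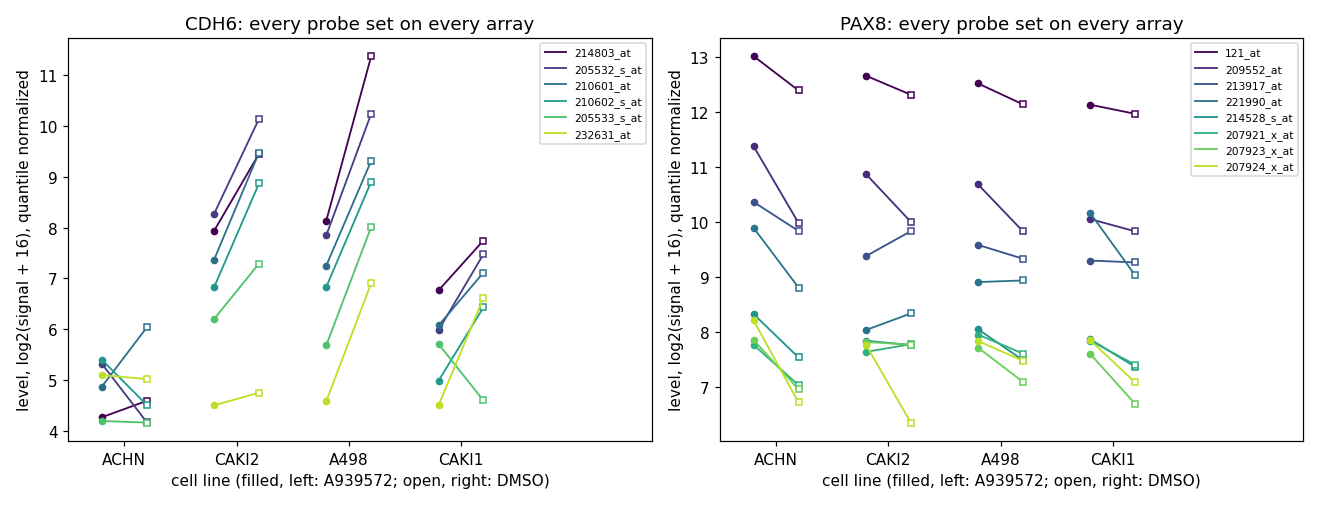
Levels of each probe set of CDH6 (left panel) and PAX8 (right panel) in the 4 lines (x axis) on the log2(signal + 16) scale (y axis), 1 array per point, with A939572 as filled and DMSO as open symbols joined by a line. In CDH6 the lines of CAKI2 and A498 go down towards A939572 in the probe sets tested, while ACHN lies near the floor.

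LHX1, the LIM factor that acts beside PAX2 and PAX8 in the nephric duct, was dim and lower with the drug. Its only probe set had 6.97, 68.9, 30.1 and 41.2 units in ACHN, CAKI2, A498 and CAKI1 with A939572, against 93.3, 129, 208 and 146 units with DMSO. The groups did not overlap. None of the 4 treated arrays and 3 of the 4 DMSO arrays passed the olfactory receptor level. The mean difference was -1.65 ± 0.70, with -0.72 in CAKI2 and -1.52 to -2.23 in the other lines, and its size is uncertain because the treated signals are at background. LHX1 passed the filter only through its DMSO arrays, with a mean level of 5.60 with A939572 and 7.25 with DMSO, so that the test after the filter is no support. When all probe sets were tested with no filter, the limma adjusted p was 0.0159. Without CAKI2, A498 or CAKI1, or with 1 in place of 16 added to the signal, its mean fell below the filter and it was not tested. It was not called between lines (range of line means 1.12, adjusted p = 0.172).

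PAX2, the paired-box factor closest to PAX8 in role, differed far more between lines than with the drug. Its brightest probe set had 448, 122, 190 and 42.6 units in ACHN, CAKI2, A498 and CAKI1 with A939572, against 712, 183, 310 and 40.3 units with DMSO. ACHN was the highest and CAKI1 the lowest in both conditions, and CAKI1 lay under the olfactory receptor level on both arrays. The differences were -0.61, -0.52, -0.65 and 0.05, a mean of -0.43 ± 0.33 (limma adjusted p = 0.140), which did not pass. Without CAKI1 the mean was -0.59 (adjusted p = 0.0588). The range of line means was 3.28 on the log2 scale (moderated F, limma adjusted p = 9e-05). The order was ACHN, A498, CAKI2 and CAKI1, and A498 and CAKI2 were the only neighbours that the test did not separate (adjusted p = 0.143). The second PAX2 probe set was dim, at 31.9 to 84.5 units with A939572 and 29.5 to 123 units with DMSO, and was not tested.

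PAX2 has 2 annotated starts in the RefSeq table. Both windows are printed to show that the searched motifs differ between them. The first (chr10:100735146-100735445, plus strand) holds neither motif. The second (chr10:100745332-100745631, plus strand) holds 1 E-box, in capitals, whose first base lies at position 34 from the start site.
PAX2 first start: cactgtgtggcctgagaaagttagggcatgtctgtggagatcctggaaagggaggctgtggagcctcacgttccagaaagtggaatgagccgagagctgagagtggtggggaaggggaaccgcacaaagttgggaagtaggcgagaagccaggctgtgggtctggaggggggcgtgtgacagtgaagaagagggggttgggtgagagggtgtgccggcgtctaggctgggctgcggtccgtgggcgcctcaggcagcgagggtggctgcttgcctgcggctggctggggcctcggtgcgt
PAX2 second start: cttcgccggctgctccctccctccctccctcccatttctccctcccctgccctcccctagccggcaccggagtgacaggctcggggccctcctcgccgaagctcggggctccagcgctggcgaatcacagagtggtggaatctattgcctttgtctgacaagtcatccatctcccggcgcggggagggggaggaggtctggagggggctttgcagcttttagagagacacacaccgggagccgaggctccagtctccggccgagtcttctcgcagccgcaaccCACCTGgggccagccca

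CDH6, the kidney cadherin of proximal tubule precursors, was lower with the drug in the lines that express it. Its brightest probe set, 214803_at, had 2.72, 233, 275 and 86.9 units in ACHN, CAKI2, A498 and CAKI1 with A939572, against 8.61, 689, 2614 and 189 units with DMSO. ACHN lay near 0 in both conditions, and in the other 3 lines the treated array was the lower one, with A498 furthest apart. The differences were -0.32, -1.52, -3.24 and -0.98, a mean of -1.52 ± 1.25 (limma adjusted p = 0.0182). The call was lost without CAKI2 (-1.52, adjusted p = 0.0601) and without A498 (-0.95, adjusted p = 0.0770).

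The probe set 210601_at of CDH6 had 11.0, 151, 141 and 48.5 units with A939572, against 52.1, 699, 636 and 116 units with DMSO. The treated array was the lower one in each line, with a mean of -1.60 ± 0.57 (limma adjusted p = 0.00205), and no line that was left out ended the call. Its mean level was 6.39 with A939572, just under the filter, and 7.99 with DMSO, and with no filter the adjusted p was 0.00660. Both ACHN signals lay under the olfactory receptor level. For 205532_s_at the signals were 20.5, 297, 223 and 44.6 units with A939572, against 2.07, 1098, 1178 and 153 units with DMSO. ACHN, at background in this probe set, gave 1.15 and the other lines -1.87, -2.40 and -1.50, so that the mean of -1.15 ± 1.58 did not pass (adjusted p = 0.102). It was -1.91 without ACHN (adjusted p = 0.00104). For 210602_s_at the mean was -1.17 ± 1.40 (adjusted p = 0.0889), and -1.85 without ACHN (adjusted p = 0.00263). The other 2 CDH6 probe sets lay below the filter. ACHN lay under the olfactory receptor level in all 6 CDH6 probe sets, so a difference within ACHN could not be measured at this signal level. With A939572, CAKI1 also lay under it in every CDH6 probe set except 214803_at, where its 86.9 units were just above.

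Lines differed in CDH6 more than in any other tested member, with a range of line means of 5.34 (limma adjusted p = 0.000211). A498 and CAKI2 stood highest and were not separated from each other (adjusted p = 0.182). CAKI1 followed, lower than A498 (adjusted p = 0.00753) but not separable from CAKI2 in this probe set (adjusted p = 0.0721). ACHN was lowest, below CAKI1 at adjusted p = 0.00643. The other tested CDH6 probe sets did separate CAKI2 from CAKI1 (limma adjusted p = 0.00419 to 0.0308). ACHN was not separated from CAKI1 in 205532_s_at (adjusted p = 0.0604) or 210602_s_at (adjusted p = 0.443). All 4 tested CDH6 probe sets were called between lines, with ranges of 2.92 to 5.34.

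CDH2, the N-cadherin common in mesenchymal and proximal tubule cells, was strongly expressed in all lines and was not called with the drug. Its signals were 6797, 6489, 6057 and 3692 units in ACHN, CAKI2, A498 and CAKI1 with A939572, against 5459, 8749, 6042 and 3109 units with DMSO. CAKI2 was lower when treated and the other 3 lines were higher, and the groups overlap. The mean difference was 0.05 ± 0.32 (limma adjusted p = 0.809), and it turned to -0.034 without ACHN and -0.012 without CAKI1. CDH2 was lowest in CAKI1, with a range of line means of 1.15 (adjusted p = 0.00300). CAKI1 differed from ACHN, CAKI2 and A498 at adjusted p = 0.00962, 0.00148 and 0.00591, and no other pair of lines passed (adjusted p = 0.325 to 0.960). Without CAKI1 the range was 0.27 (adjusted p = 0.409), and without CAKI2 it was 0.89, under the limit of 1 used for a call. The second CDH2 probe set followed the first (r = 0.98 over the 8 arrays) and had 0.10 ± 0.31 (adjusted p = 0.664).

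CDH2 also has 2 annotated starts. The window of the first (chr18:28177081-28177380, minus strand) is printed because it holds 1 GC box, in capitals, with its first base at position -177 from the start site. The second holds neither motif.
CDH2 first start: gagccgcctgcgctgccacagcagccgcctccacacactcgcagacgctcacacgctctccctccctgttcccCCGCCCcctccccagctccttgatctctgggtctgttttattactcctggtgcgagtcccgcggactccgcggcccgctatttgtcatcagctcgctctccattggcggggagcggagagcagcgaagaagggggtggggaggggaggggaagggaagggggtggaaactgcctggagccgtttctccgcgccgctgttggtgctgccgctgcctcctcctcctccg

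CDH1, the E-cadherin of epithelial junctions, was at background in most arrays. Its brightest probe set had 60.3, 3.49, 7.30 and 30.1 units in ACHN, CAKI2, A498 and CAKI1 with A939572, against 514, 5.46, 22.7 and 51.0 units with DMSO. The DMSO array of ACHN was the only one above the olfactory receptor level. ACHN is thus the 1 line with a measurable signal, and there it was lower with the drug by a difference of -2.69, with no second array to test it. The other CDH1 probe set had 24.1 units with A939572 and 34.0 units with DMSO in ACHN, under the olfactory receptor level on both arrays, so the 2 probe sets disagree on whether CDH1 is detected there. CDH16, the kidney-specific cadherin, had 14.1, 165, 83.9 and 25.4 units with A939572, against 89.0, 244, 7.38 and 31.6 units with DMSO. CAKI2 was above the olfactory receptor level on both arrays, and no other line was on either.

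**Figure D3:**
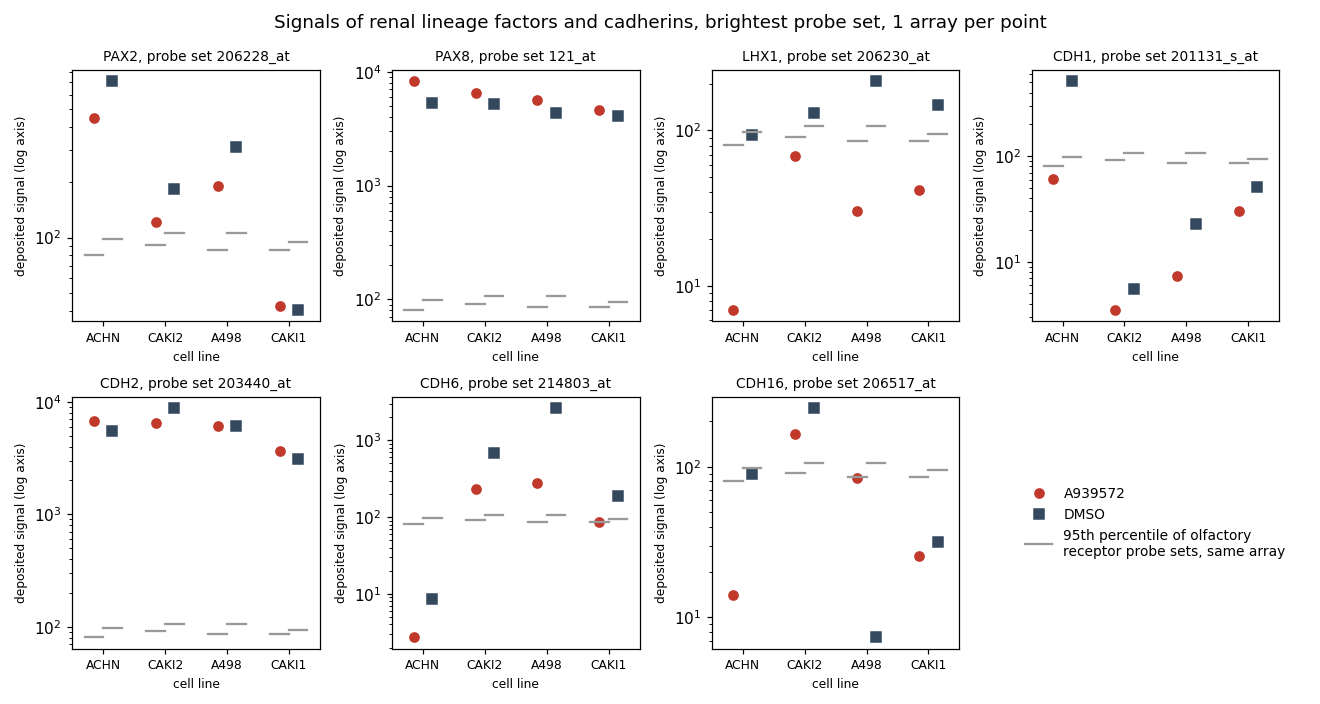
Deposited signals (log axis) of the brightest probe set of each of the 7 genes in the 4 lines (x axis), 1 array per point, with A939572 at the left as circles and DMSO at the right as squares. The grey bars mark the 95th percentile of 135 olfactory receptor probe sets on the same array. PAX8 and CDH2 stand above the bars on all 8 arrays, and CDH1 stands above them on 1.

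Between lines, 8 of the 16 tested probe sets and 3 of the 5 tested genes (PAX2, CDH2 and CDH6) were called, with an adjusted p under 0.05 and a range of line means of at least 1. The same rule called 39.6% of all probe sets and 42.7% of all genes tested. Pairs of lines were called by the adjusted p alone, with no limit on the size of the difference. Of the 16 probe sets, 8 are of PAX8 and 4 of CDH6, so the counts weigh these genes more. ACHN against CAKI2 called 6 of the 16, in PAX2, PAX8 and CDH6, beside 28.3% of all probe sets. ACHN against A498 called 5, in PAX2 and CDH6, beside 26.4%. ACHN against CAKI1 called 7, in PAX2, PAX8, CDH2 and CDH6, beside 22.1%. CAKI2 against A498 called 0 of 16, also 0 at an unadjusted p under 0.05 in limma, beside 28.8% of all probe sets. CAKI2 against CAKI1 called 7, in PAX2, PAX8, CDH2 and CDH6, beside 31.7%. For ACHN against CAKI1 the PAX8 calls were 121_at and 213917_at, with ACHN higher. For CAKI2 against CAKI1 the PAX8 call was 221990_at alone, with CAKI2 lower (-1.41). That probe set was also the 1 of PAX8 called between lines by the F test and the range (1.41). A498 against CAKI1 called 7, in PAX2, CDH2 and CDH6, beside 30.9%. The residual of this fit is how far both arrays of a line depart from the mean drug difference, so it holds no spread between cultures.

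The genes whose levels ran most like each tested member over the 8 arrays were taken from 12092 genes, as a description. For PAX2 they were GCH1, EDN2 and HS3ST3B1 (Pearson r = 0.97 each). EDN2, which encodes endothelin 2, had line means of 8.64, 6.59, 7.15 and 4.84 on the log2 scale in ACHN, CAKI2, A498 and CAKI1, the same order as PAX2. For PAX8 they were TAF1D, CLCN3 and MGAT2 (r = 0.97 each), and for LHX1 VMA22, RGS19 and DBI (r = 0.97 to 0.98). For CDH2 they were LAT, FAM241B and HNRNPLL (r = 0.97 to 0.98), and for CDH6 CD276, CMIP and GDA (r = 0.97 to 0.98). GDA, the guanine deaminase, had line means of 5.78, 9.34, 10.39 and 8.87 in ACHN, CAKI2, A498 and CAKI1, with ACHN lowest and A498 highest as for CDH6. The 8 points share line and drug.

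Other kidney development factors changed with the drug in 1 of 9 tested genes, which was lower. POU3F3, a factor of the loop of Henle and distal nephron in the mouse, had 742, 4829, 939 and 164 units in ACHN, CAKI2, A498 and CAKI1 with A939572, against 2946, 8169, 1815 and 328 units with DMSO. It fell in all 4 lines, by a mean of -1.16 ± 0.56 (limma adjusted p = 0.00273), although its other tested probe set had -0.31 ± 0.58 (adjusted p = 0.481) and the mean of its probe sets gave -0.65 (adjusted p = 0.0202). The list median was -0.06, beside -0.03 over all genes tested. For this and the following lists, the shares over all genes tested were 14.4% higher, 15.7% lower and 42.7% called between lines. Lines differed in 6 of the 9. The widest ranges were those of IRX3, SALL1 and POU3F3, at 6.10, 5.03 and 4.59, and each was lowest in CAKI1. SALL1, a zinc finger factor of nephron progenitors, had 22.9 units in CAKI1 with A939572 and 0.696 units with DMSO, while the other lines had 317 to 850 units with A939572 and 402 to 905 units with DMSO.

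Of the other PAX and LIM homeobox factors, 0 of 4 tested passed in limma (unadjusted p under 0.05 in 1 of them) and the median was -0.50. Lines differed in 3 of the 4. PAX3, a factor of neural crest and muscle precursors, had 53.0, 34.4, 23.5 and 758 units in ACHN, CAKI2, A498 and CAKI1 with A939572, against 61.7, 28.1, 23.8 and 538 units with DMSO. ISL1 was also highest in CAKI1, at 369 units with A939572 and 697 units with DMSO. LHX2 was highest in CAKI2 and A498, at 288 and 472 units with A939572 and 1106 and 1249 units with DMSO. CAKI1, the line with the lowest PAX2 signal, was thus the one with PAX3 above the olfactory receptor level. A signal in 1 line was not particular to CAKI1. Below the filter, PAX6 was above that level in ACHN alone, at 779 units with A939572 and 506 units with DMSO. LHX8 was above it in A498 alone, at 350 units with A939572 and 389 units with DMSO.

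Of 8 proximal tubule genes tested, 4 were lower with A939572, beside 15.7% of all genes tested. The other 4 did not pass, and the median was -0.82. A probe set existed for 18 genes of the list. Those below the filter, such as LRP2, CUBN, SLC34A1, SLC5A2 and AQP1, were not tested and had differences of both signs. SLC3A1, a subunit of the cystine transporter, had 545, 675, 111 and 62.5 units in ACHN, CAKI2, A498 and CAKI1 with A939572, against 2103, 1133, 250 and 292 units with DMSO. It fell by a mean of -1.41 ± 0.60 (limma adjusted p = 0.00181), and the mean of its probe sets lay below the filter. The scaffold gene PDZK1 had -1.38 ± 1.10 (adjusted p = 0.0133), with almost no difference in CAKI2 and -1.26 to -2.67 in the other lines. HAVCR1, the injury marker KIM-1, had -1.18 ± 0.79 (adjusted p = 0.00870). The fourth, GPX3, was named after its values were seen and had -0.97 ± 0.34 (adjusted p = 0.00631). All 8 differed between lines, beside 42.7% of all genes tested. The aminopeptidase ANPEP had the widest range, at 5.93, and was above the olfactory receptor level in A498 and CAKI1 only. MAF was highest in A498 and CAKI2, and the endocytic adaptor DAB2 was lowest in CAKI2.

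Distal nephron and collecting duct genes were called with the drug in 0 of 4 in limma (unadjusted p under 0.05 in 0 of them), with a median of -0.02. Lines differed in 2 of them. CLDN16, a tight junction protein of the thick ascending limb, had 1722, 317, 9.56 and 53.0 units in ACHN, CAKI2, A498 and CAKI1 with A939572, against 3102, 289, 13.7 and 81.9 units with DMSO. EGF was highest in CAKI2, at 952 units with A939572 and 921 units with DMSO. Of 3 podocyte genes, the receptor phosphatase PTPRO was higher, by 0.61 ± 0.15 (limma adjusted p = 0.00411), but the mean of its probe sets gave -0.31 (adjusted p = 0.165). The other 2 podocyte genes, SYNPO and PODXL, differed between lines and did not pass with the drug.

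Of 4 other cadherins tested, CDH17, the liver-intestine cadherin, was called lower and the other 3 did not pass, with a list median of -0.32. CDH17 had 3.97, 8.25, 305 and 92.4 units in ACHN, CAKI2, A498 and CAKI1 with A939572, against 52.2, 56.1, 682 and 223 units with DMSO. It was above the olfactory receptor level in A498 and CAKI1 only, where the differences were -1.14 and -1.13. Those of ACHN and CAKI2, at -1.67 and -1.53, are between background signals, so no mean over the 4 lines is drawn on. CDH17 passed the filter only through its DMSO arrays, with a mean level of 6.03 with A939572 and 7.39 with DMSO. With no filter its limma adjusted p was 0.0138. Without A498, CDH17 fell below the filter and was not tested.

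Among 12 tested catenins and cadherin partners, 5 were lower, 1 was higher, and the median was -0.26. JUP (plakoglobin), which links cadherins to the cytoskeleton, had 47.7, 186, 14.4 and 220 units in ACHN, CAKI2, A498 and CAKI1 with A939572, against 120, 616, 150 and 383 units with DMSO. It fell by -1.43 ± 0.73 (limma adjusted p = 0.00529). The treated signals of ACHN and A498 lay under the olfactory receptor level. A498 gave the largest difference, -2.35, so the size of the fall is uncertain. VCL (vinculin), which ties the junction to actin, had 4294, 2573, 6554 and 5340 units with A939572, against 9699, 4857, 12044 and 10684 units with DMSO, a mean of -0.95 ± 0.18 (adjusted p = 0.000454). The other VCL probe set was dim and had -0.0030 ± 0.56, and the mean of both gave -0.48 (adjusted p = 0.0438). CTNNB1 (beta-catenin), the cytoplasmic partner of classical cadherins, fell by -0.64 ± 0.11 (adjusted p = 0.00141). Its second probe set had -0.96 ± 0.38 and the next -0.23 ± 0.26, which did not pass. The adhesion gene NECTIN3 (-0.64 ± 0.27), the protease gene ADAM10 (-0.54 ± 0.27) and CBLL1, an E-cadherin ubiquitin ligase gene (0.62 ± 0.23), were the remaining calls and were named after their values were seen. NECTIN3 was not called without A498 (adjusted p = 0.0568), nor ADAM10 without the variance trend (adjusted p = 0.0513). Lines differed in 6 of the 12, most in JUP, ARVCF and NECTIN3.

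CDH1 repressors and epithelial regulators held 2 genes that rose and 1 that fell among 7 tested, with a median of 0.34. ZEB2, a zinc finger repressor of CDH1, had 1940, 97.0, 1645 and 1295 units in ACHN, CAKI2, A498 and CAKI1 with A939572, against 748, 38.1, 519 and 445 units with DMSO. It rose by 1.39 ± 0.23 (limma adjusted p = 0.000412). Its next probe set rose by 1.04 ± 0.23, another had 0.47 ± 0.47 and did not pass (adjusted p = 0.190), and the mean of all its probe sets gave 0.68 (adjusted p = 0.0279). Within each line the treated array was the higher one, and CAKI2 stood below the rest in both conditions. ZEB1, its paralog, had 2459, 3770, 2324 and 2694 units with A939572, against 1354, 2102, 1253 and 2069 units with DMSO, without overlap, a rise of 0.72 ± 0.24 (adjusted p = 0.00385). With the mean of all its probe sets ZEB1 had 0.29 and was not called (adjusted p = 0.156). TCF3, which encodes the E2A factors, fell by -0.61 ± 0.06 (adjusted p = 0.00647), and with the mean of its many probe sets it had -0.30 (adjusted p = 0.194). Lines differed in 5 of the 7, most in ZEB2, TCF4 and TWIST2, with ranges of 3.96, 3.96 and 3.56. TCF4 was highest in CAKI1 and ACHN, and TWIST2 in ACHN. Below the filter, TWIST1 was above the olfactory receptor level in CAKI1 alone, at 738 units with A939572 and 1206 units with DMSO. CDH1 itself passed the olfactory receptor level on 1 array only, that of ACHN with DMSO, and in 1 of its probe sets. CDH1 was thus measurable in ACHN alone and at background in the other lines, so it is not set beside these genes.

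**Figure D4:**
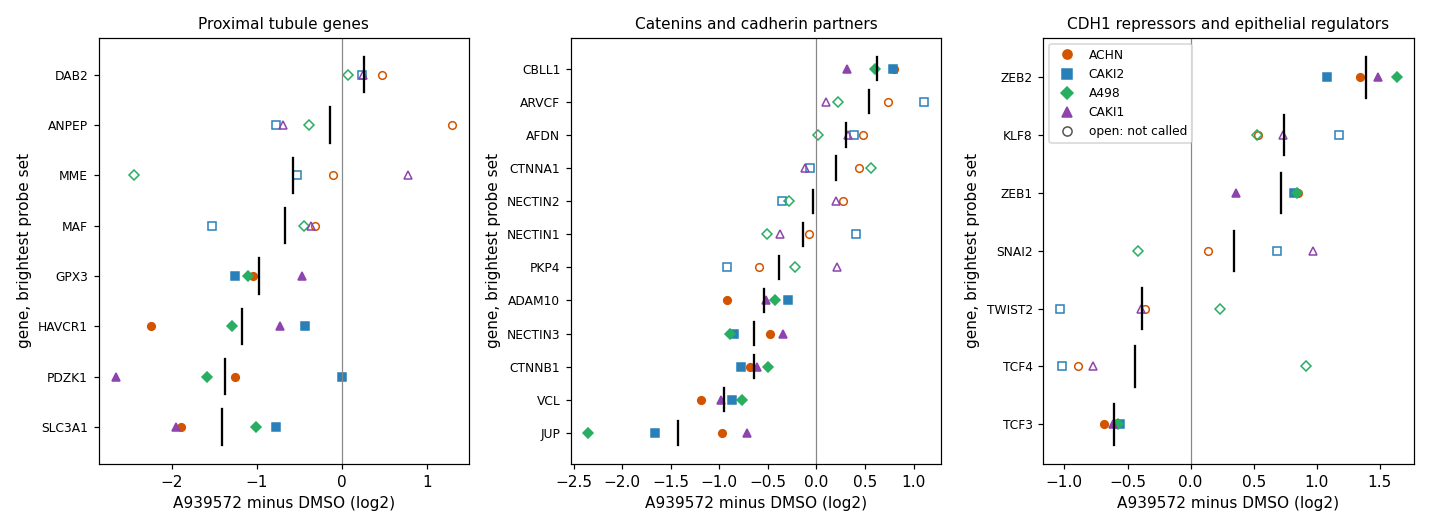
Difference between A939572 and DMSO on the log2 scale (x axis) for the tested genes (y axis) of 3 lists, with 1 symbol per line and a bar at the mean; filled symbols were called. The 4 filled proximal tubule genes lie at or left of 0 in every line, and ZEB2 and ZEB1 lie right of 0 in every line.

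Among 7 tested clear cell carcinoma and HIF marker genes, VEGFA, the angiogenic growth factor, was the 1 called with the drug. It had 3413, 15871, 6954 and 3139 units in ACHN, CAKI2, A498 and CAKI1 with A939572, against 1632, 5149, 4392 and 2181 units with DMSO, a rise of 0.98 ± 0.55 (limma adjusted p = 0.00410). The list median was -0.01. Lines differed in 5 of the 7. NNMT was lowest in CAKI2, at 195 units with A939572 and 123 units with DMSO, and at 7805 to 21096 and 7351 to 23918 units in the other lines. EGLN3 was highest in CAKI2 and A498, the same lines in which CDH6 was highest. ANGPTL4 was highest in CAKI2, at 738 units with A939572 and 775 units with DMSO.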

How the data were processed

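Total RNA from 4 lines, each with A939572 and with DMSO, was turned into biotin-labelled cRNA and hybridized to 8 one-colour arrays, per the labels' protocols. Each deposited value is a linear intensity of 1 probe set on 1 array, and the values show that the authors had scaled all arrays to a common trimmed mean (500.067 to 500.073). The software behind this step is not given in the sources used here. Both the members and the gene lists were chosen with earlier results of these data known. After 62 control probe sets were left out, signals were transformed as log2(signal + 16) and quantile normalized. Probe sets at or above the median were fitted with limma (version 3.58.1 in R 4.3.3), with cell line as a block and a mean-variance trend, 2-sided, with Benjamini-Hochberg adjustment over 27307 probe sets at 0.05. The submitters' design pairs each treated array with the DMSO array of its line, and deviations of paired arrays correlated at 0.775 to 0.828. Residual plus prior degrees of freedom were 9.85 and the median SE was 0.18. An exact test on 4 pairs cannot go below p = 0.125. The drug-by-line interaction was not testable with 1 pair per line. Separate cultures are not stated, so the p-values measure the spread between these lines. The brightest probe set stands for a gene. Named genes were all members, the 3 genes most correlated with each tested member, and up to 3 genes per list with the largest called change and line range. Annotated symbols were matched to GRCh38.p14 names for 41037 of 41091 probe sets with 1 symbol. The fit was tested on simulated data. Alternatives were the offset, normalization, filter, variance trend, block, probe set choice and each line left out.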

Additional observations from a re-analysis of the deposited data

Results flagged for a closer look

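In 48 groups of 4 arrays or lines, formed from the levels and differences of the member probe sets, 1 value stood apart from the other 3 by Dixon's criterion at 95%, which chance meets in about 1 of 20 groups. The level of CDH2 (203440_at) with A939572 was 11.83 in CAKI1 on the log2 scale, while the other 3 lines lay between 12.64 and 12.74. In DMSO the same probe set gave no such value, and CAKI1 was again the lowest line, with 3692 units with A939572 and 3109 units with DMSO.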

How the results depend on the processing

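Over all results and settings tried, 740 alternative values kept their direction and their side of the threshold or stayed close to the value first given, and 93 did not. Without the cell line as a replicate block, which drops the pairing of the design, 94 probe sets were called with the drug in place of 7088, 0 of the 5 tested member genes and 0 list genes. In that fit PAX8 at 0.38, LHX1 at -1.65 and CDH6 at -1.52 had limma adjusted p-values of 0.514, 0.133 and 0.723. With fewer features in the fit the number called with the drug was lower, and so was the number tested. It was 3706 of 12093 with 1 probe set per gene and 2866 of 10888 with the mean of a gene's probe sets. After dropping probe sets whose suffix marks a possible match to more than 1 transcript it was 3856 of 18697, against 7088 of 27307 at first. Between lines, those settings called 5124, 3828 and 7137 of the same totals. A filter at the 75th percentile called 5575 of 13654 between lines, in place of 10821 of 27307. Of the member genes, 3 were called at first, 1 with the filter at the 75th percentile, 1 without the variance trend, and 0 to 2 with 1 line left out, with 0 without CAKI2 and 0 without A498. PAX8 at 0.38 was not called without the filter (adjusted p = 0.0615) or without the trend (0.103), and CDH6 at -1.52 not without the trend (0.0512). With a line left out, PAX8 ran from 0.30 to 0.45 (0.39 without CAKI2), CDH6 from -1.91 to -0.95 and CDH2 from -0.034 to 0.21. Signs turned for CDH2 without ACHN (-0.034) and without CAKI1 (-0.012), for PAX8 213917_at without ACHN (-0.056), and for PTPRO with the mean of its probe sets (-0.31). CDH1 was called between lines with no filter (range 3.34, adjusted p = 0.0125). The cause of these changes was not tested. Signal over background limits CDH1, CDH16 and LHX1 on most arrays and CDH6 in ACHN. It also limits most CDH6 probe sets in CAKI1 with A939572.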

Other observations

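PAX8-AS1, HNF4A-AS1 and HNF4G, which are outside the fixed lists, were looked up after the results were known. PAX8-AS1 is an antisense gene that lies within PAX8 in RefSeq. Its brightest probe set, 227474_at, which stands for the gene, had 0.04 ± 0.28 and did not pass (limma adjusted p = 0.912). A dimmer one, 228425_at, had 124, 407, 66.1 and 497 units in ACHN, CAKI2, A498 and CAKI1 with A939572, against 17.1, 116, 10.9 and 6.30 units with DMSO. The treated array was higher in all 4 lines. The mean difference was 2.53 ± 1.36, of uncertain size since most DMSO signals are at background. This probe set passed the filter only through the treated arrays, with a mean level of 7.82 with A939572 and 5.29 with DMSO, and with no filter its limma adjusted p was 0.00884. It fell below the filter, and was not tested, without CAKI2 and with 1 added to the signal. The tested probe sets of PAX8-AS1 thus disagree, and the remaining one was dim and not tested. HNF4G, a nuclear receptor related to HNF4A, had 589, 924, 576 and 688 units with A939572, against 365, 661, 262 and 535 units with DMSO. It rose by 0.66 ± 0.35 (limma adjusted p = 0.0174), and lost the call without ACHN (adjusted p = 0.0545) or without A498 (adjusted p = 0.0765). The other HNF4G probe set was under the olfactory receptor level on every array and was not tested. The same held for HNF4A-AS1, with -0.22 ± 0.80. The fibroblast marker COL1A1 was lower with A939572 in its brightest probe set, by -1.04 ± 0.36, and its next probe set had -0.11 ± 0.22, which did not pass.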
